A study of Mus musculus with 12 samples.

Results

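The transcripts of 6 genes of thyroid hormone metabolism and action were followed in primary mouse skin fibroblasts, among 21556 genes in the deposited table of raw counts. They were the deiodinase genes Dio2 and Dio3, the thyroid hormone receptor genes Thra and Thrb, the thyroglobulin gene Tg, and Klf9, a transcription factor gene known as a target of the hormone. The genes were picked by name with their TGF-β2 responses already in view. Their differences between stimulated and control cells are therefore given as description, and nothing is read from the calls given for them.

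WT cells came from C57BL/6 mice and Nox4 KO cells from the constitutive Nox4 knockout line B6.129-Nox4tm1Kkr/J, in both cases from abdominal skin. The sources used here do not give the age of the animals or how many animals stood behind a culture. All cells were serum starved for 24 h, and stimulated cells then received 10 ng/ml TGF-β2 for 24 h, whereas control cells received none. The 12 libraries fell into 4 groups of 3, described by the submitters as biological replicates, and held 35118344 to 43796260 counted reads each. As a check of the labels, the Nox4 KO libraries still held 102 to 207 reads of Nox4 in control and 782 to 1175 after TGF-β2, against 203 to 398 and 1314 to 2471 in WT. The control ranges overlapped, and a table of gene counts does not show on which exons the reads fell. No agent that acts on thyroid hormone signaling is named for any group.

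Thyroid hormone is secreted mainly as thyroxine, a prohormone that cells take up through membrane transporters. The deiodinases are selenoenzymes that remove iodine from it. The enzyme encoded by Dio2 forms the active hormone triiodothyronine inside the cell, and the enzyme encoded by Dio3 destroys both hormones. The receptors encoded by Thra and Thrb bind DNA with or without the hormone, mostly together with a retinoid X receptor, and recruit coactivators or corepressors. Thyroglobulin is the protein on which the thyroid gland builds the hormone, and it is not a usual product of skin.

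A selenocysteine in the active centre is what Dio2 and Dio3 share, and the letters around its codon are shown for that reason. In GENCODE transcripts of GRCm38 this residue is written by an in-frame TGA, which elsewhere ends translation. It is codon 130 of 266 in Dio2 (chr12:90729823-90729825, minus strand), codon 170 of 304 in Dio3 (chr12:110279739-110279741, plus strand) and codon 126 of 257 in Dio1 (chr4:107297700-107297702, minus strand), the other gene of the family. The TGA stands in capitals, with 30 coding bases on either side.
Dio1: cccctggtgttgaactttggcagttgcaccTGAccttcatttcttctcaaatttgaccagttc
Dio2: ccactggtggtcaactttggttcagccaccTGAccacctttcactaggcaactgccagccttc
Dio3: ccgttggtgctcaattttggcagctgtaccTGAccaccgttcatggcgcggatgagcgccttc

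Dio2 and Dio3 were identical at 41 of these 63 bases, Dio1 and Dio3 at 37 and Dio1 and Dio2 at 36. Dio2 holds a second such codon, number 263, close to its end (chr12:90729424-90729426).

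The control regions of the deiodinase genes were compared because both transcripts were lower after TGF-β2. RefSeq windows of 250 bases before the transcript start (GRCm38.p6) were matched for 4 of the 6 genes, Dio2, Dio3, Thrb and Klf9. The Dio2 window (chr12:90739039-90739288, minus strand) held 41.6% G or C and is printed with its 2 matches in capitals. They are TGACGTCA, the cAMP response element, from base 95 before the start, and TATAAA, the TATA box, from base 30.
Dio2: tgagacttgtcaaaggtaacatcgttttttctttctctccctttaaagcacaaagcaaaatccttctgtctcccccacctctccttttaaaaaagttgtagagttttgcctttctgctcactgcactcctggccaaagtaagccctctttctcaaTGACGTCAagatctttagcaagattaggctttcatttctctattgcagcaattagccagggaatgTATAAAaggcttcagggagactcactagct

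The Dio3 window (chr12:110278980-110279229, plus strand) held 69.6% G or C, with 4 GC boxes (GGGCGG on either strand), 2 CAAT boxes (CCAAT on either strand) and a TATA box from base 31. Its last CAAT box and its TATA box are printed in capitals (chr12:110279182-110279211). GENCODE starts the gene further upstream, so that these letters lie inside its first exon there.
Dio3: CCAATtcaagctttgacTATAAAttgagct

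Of all 32851 RefSeq windows, 12.4% held TATAAA, 33.8% CCAAT, 32.7% GGGCGG and 1.55% TGACGTCA, each on either strand. Neither deiodinase window held TGACTCA, the AP-1 site, AGGTCA, a nuclear receptor half-site, or CAGAC, a SMAD element, which occurred in 4.46%, 14% and 42.2% of windows. These matches are letters only, and binding was not measured.

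Control fibroblasts held Thra and Klf9 at moderate levels, Dio3 somewhat lower, and Dio2, Thrb and Tg below 1 RPKM, the reads per kilobase of exon scaled to library size. In WT control the means were 19.9 RPKM for Thra, 10.1 for Klf9, 7.91 for Dio3, 0.699 for Dio2, 0.593 for Thrb and 0.544 for Tg (n = 3). The ranges of Klf9 and Dio3 overlapped, as did those of Dio2 and Thrb and those of Thrb and Tg. After TGF-β2 the order in WT became Thra (7.88 RPKM) and Klf9 (7.86), with overlapping ranges, then Tg (1.82), Dio3 (0.280), Thrb (0.140) and Dio2 (0.0267). Tg thereby passed both deiodinase genes and Thrb. Fewer cells with a transcript and less of it per cell cannot be told apart in bulk RNA.

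**Figure D1:**
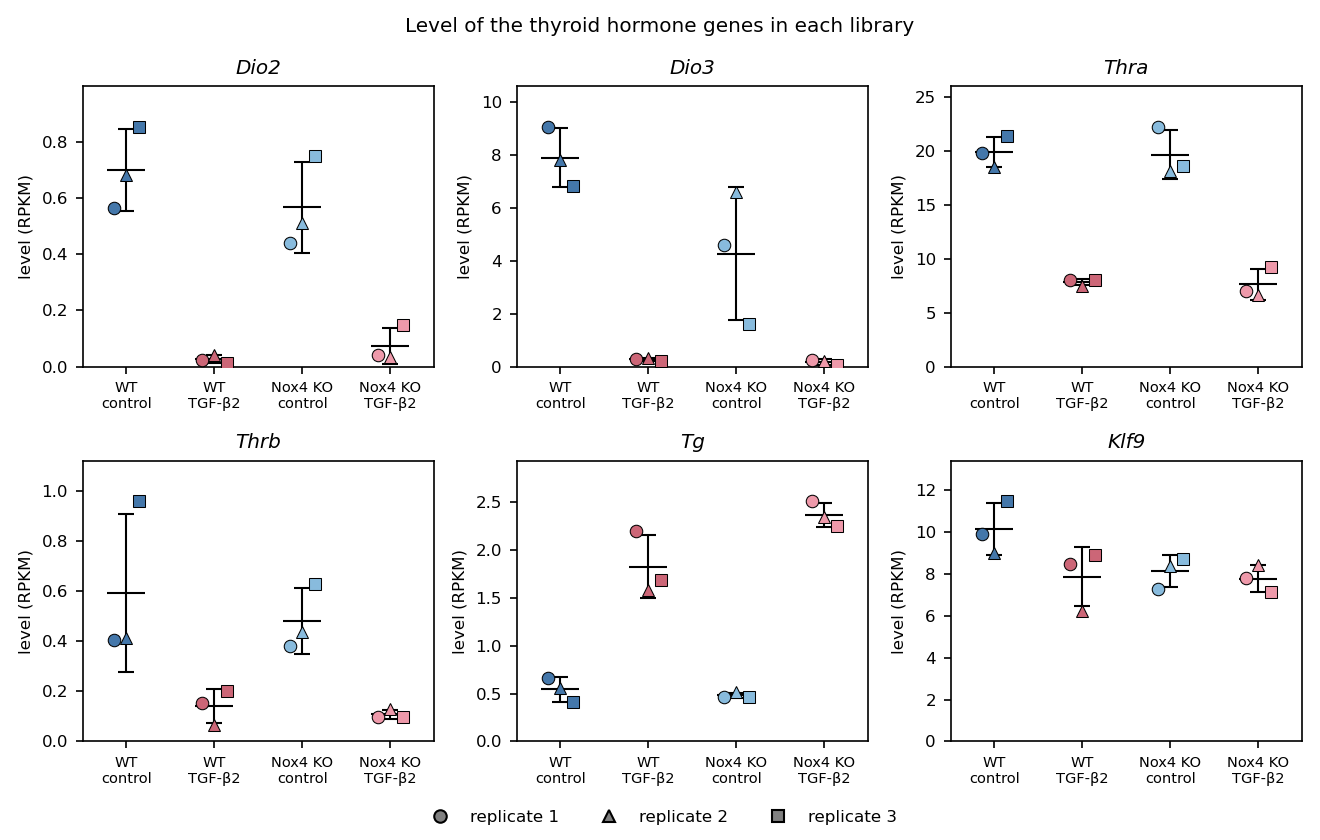
Level of each of the 6 genes (RPKM, linear axis from 0) in the 12 libraries, with 1 panel per gene and 1 column per group. Symbols are libraries by replicate number, the horizontal line is the group mean and the bar is ± SD over 3 libraries. Dio2, Dio3, Thra and Thrb lie lower after TGF-β2 in both genotypes, Tg lies higher, and Klf9 overlaps between the Nox4 KO groups.

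Both deiodinase transcripts were lower in every stimulated library, at 3.54% and 4.27% of the control mean for Dio3 in WT and Nox4 KO and at 3.82% and 13.1% for Dio2. Dio3 (ENSMUSG00000075707, chr12:110279068-110281097, plus strand) was counted 647, 604 and 560 times in the WT control libraries and 25, 24 and 17 times in the stimulated ones. In Nox4 KO it was counted 358, 561 and 118 times in control and 23, 20 and 5 times after TGF-β2. Control and stimulated libraries did not overlap in either genotype, and 1 Nox4 KO control library, the one with 118 reads, was lower than the other two. Among genes with a read in every library compared, 42.8% did not overlap in WT and 45.2% in Nox4 KO, and nothing is read from this, because the genes were chosen on this response.

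The mean level of Dio3 went from 7.91 ± 1.12 to 0.280 ± 0.0481 RPKM in WT (SD, n = 3), which left 3.54% of the control level. In Nox4 KO it went from 4.28 ± 2.53 to 0.182 ± 0.109 RPKM, or 4.27% of control. The fitted log2 difference, stimulated minus control, was -4.77 (SE 0.22) in WT and -4.46 (SE 0.73) in Nox4 KO.

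Dio2 (ENSMUSG00000007682, chr12:90724552-90738438, minus strand) was a rarer transcript, counted 115, 151 and 200 times in WT control and 6, 9 and 3 times after TGF-β2. The Nox4 KO libraries held 98, 124 and 158 reads in control and 10, 9 and 36 reads after TGF-β2. The groups again did not overlap, and the 36 reads of 1 stimulated Nox4 KO library stood above the other 5 stimulated libraries. The levels were 0.699 ± 0.146 and 0.0267 ± 0.0136 RPKM in WT and 0.566 ± 0.161 and 0.0741 ± 0.0630 RPKM in Nox4 KO. Because Dio2 never reached a group mean of 1 RPKM, its log2 difference was taken from a fit with edgeR's own count filter (filterByExpr), and was -4.60 (SE 0.37) in WT and -2.82 (SE 0.57) in Nox4 KO. Without the library with 36 reads the latter was -3.76 (SE 0.36), a choice made after the value was seen.

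Per length, Dio3 exceeded Dio2 in 11 of the 12 libraries. The ratio of Dio3 to Dio2 had a median of 11.5 in unstimulated and 11.9 in stimulated WT cells, and of 10.5 and 6.37 in the Nox4 KO cells. Its lowest value, 0.398, was in the stimulated Nox4 KO library with 36 Dio2 reads, which also held only 5 Dio3 reads. Dio1, which encodes the deiodinase of liver and kidney, had 1 read in 1 WT control library and 0 in the other 11, where a count of 0 allows up to 3 counts.

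Both receptor transcripts were lower after TGF-β2. Thra (ENSMUSG00000058756, chr11:98740638-98769006, plus strand), which encodes the receptor that prevails in heart, bone and brain, was at 19.8, 18.6 and 21.4 RPKM in WT control and at 8.04, 7.54 and 8.05 RPKM after stimulation. In Nox4 KO it was at 22.3, 18.1 and 18.7 RPKM in control and at 7.02, 6.62 and 9.28 RPKM after TGF-β2. Every stimulated library lay below every control library, at 39.5% of the control mean in WT and 38.8% in Nox4 KO. The log2 differences were -1.30 (SE 0.09) and -1.28 (SE 0.15).

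The end of Thra overlaps Nr1d1, a circadian repressor gene on the other strand, by 263 exonic bases. No source states if strand was used in the counting, so that reads in this stretch could belong to either gene. Nr1d1 itself did not pass the test with TGF-β2, at 25.5 ± 0.906 and 27.6 ± 1.55 RPKM in WT (log2 0.15, SE 0.09, edgeR adjusted p = 0.264) and at 22.9 and 23.5 RPKM in Nox4 KO (adjusted p = 0.360).

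Thrb (ENSMUSG00000021779, chr14:17660261-18038090, plus strand), the receptor gene of liver, pituitary and cochlea, was read 101, 112 and 274 times in WT control and 44, 18 and 53 times after TGF-β2. Counts in Nox4 KO were 103, 129 and 162 in control and 30, 40 and 29 after TGF-β2. The groups did not overlap, although 1 WT control library stood well above the other two. The levels were 0.593 ± 0.317 and 0.140 ± 0.0676 RPKM in WT and 0.481 ± 0.130 and 0.108 ± 0.0179 RPKM in Nox4 KO. With the filterByExpr filter the log2 differences were -1.99 (SE 0.48) in WT and -2.03 (SE 0.26) in Nox4 KO, and without that WT control library the WT value was -1.50 (SE 0.43).

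Thra was thus the main receptor transcript in every library. The ratio of Thra to Thrb per length had a median of 44.9 in unstimulated and 52.8 in stimulated WT cells, and of 41.6 and 71.2 in the Nox4 KO cells, and its ranges overlapped between control and stimulated libraries in both genotypes. With exons of all transcripts in place of protein-coding ones, the Thra means were 13.8, 5.47, 13.7 and 5.30 RPKM in WT control, WT after TGF-β2 and the same groups of Nox4 KO.

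Tg went the other way. Tg (ENSMUSG00000053469, chr15:66670753-66850721, plus strand) was counted 203, 184 and 143 times in WT control and 777, 518 and 544 times after TGF-β2. In Nox4 KO it was counted 153, 186 and 147 times in control and 932, 889 and 824 times after TGF-β2. All stimulated libraries lay above all control libraries. The level went from 0.544 ± 0.129 to 1.82 ± 0.329 RPKM in WT, 3.35 times the control mean, and from 0.480 ± 0.0292 to 2.37 ± 0.128 RPKM in Nox4 KO, 4.93 times. The log2 differences were 1.78 (SE 0.24) and 2.38 (SE 0.10).

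The thyroid itself was not seen in these cells. The 8 markers of thyroid follicular cells, among them Slc5a5, Tshr, Pax8, Nkx2-1 and Foxe1, were each under 1 RPKM in every library, and their summed level was 0.0714 to 0.409 RPKM, lowest after TGF-β2 in WT. The 8 fibroblast markers summed to 4091.7 to 6956 RPKM. Sla, an adaptor gene of blood cells that lies in an intron of Tg on the other strand, was counted 4 to 40 times per library and shares no exonic base with it. Gm17140, an antisense gene with no counts of its own here, shares 112 exonic bases with Tg on the other strand. Gm26512, likewise not counted, shares 100 with Dio2. As for Thra, reads in these stretches could belong to either gene.

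The next gene downstream of Tg was higher after TGF-β2 as well. Ccn4 (chr15:66891320-66923201, plus strand), which encodes a secreted matrix protein, starts 40.6 kb beyond the end of Tg on the same strand. It stood at 116, 107 and 100.2 RPKM in WT control and 196, 158 and 204 RPKM after TGF-β2, and at 100.3, 98.3 and 89.4 and then 218, 207 and 215 RPKM in Nox4 KO. Its log2 difference was 0.83 (SE 0.14, edgeR adjusted p = 0.00869) in WT, under the 2-fold limit, and 1.24 (SE 0.08, adjusted p = 0.00126) in Nox4 KO, where it was called. The part of this neighbor in the reads of Tg was not tested.

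Dio3 lies in an imprinted domain together with Dlk1, which encodes a secreted relative of the Notch ligands and ends 816 kb before Dio3 on the same strand. Dlk1 stood at 12.9 RPKM in WT control and 8.06 after TGF-β2 (log2 -0.65, SE 0.52, edgeR adjusted p = 0.399). In Nox4 KO it stood at 24.2 and 11.7 RPKM (log2 -0.97, SE 0.18, adjusted p = 0.0135), just under the fold limit.

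Klf9 differed least of the 6 genes. Klf9 (ENSMUSG00000033863, chr19:23141226-23168134, plus strand) was counted 1560, 1540 and 2071 times in WT control and 1550, 1055 and 1482 times after TGF-β2. The Nox4 KO libraries held 1246, 1571 and 1418 reads in control and 1502, 1651 and 1346 reads after TGF-β2. The levels were 10.1 ± 1.24 and 7.86 ± 1.42 RPKM in WT and 8.11 ± 0.758 and 7.77 ± 0.644 RPKM in Nox4 KO. Per length and library size the WT groups just failed to overlap and the Nox4 KO groups overlapped. The log2 differences were -0.32 (SE 0.16) in WT and 0.03 (SE 0.10) in Nox4 KO, and the latter turned to -0.04 with upper-quartile scaling.

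**Figure D2:**
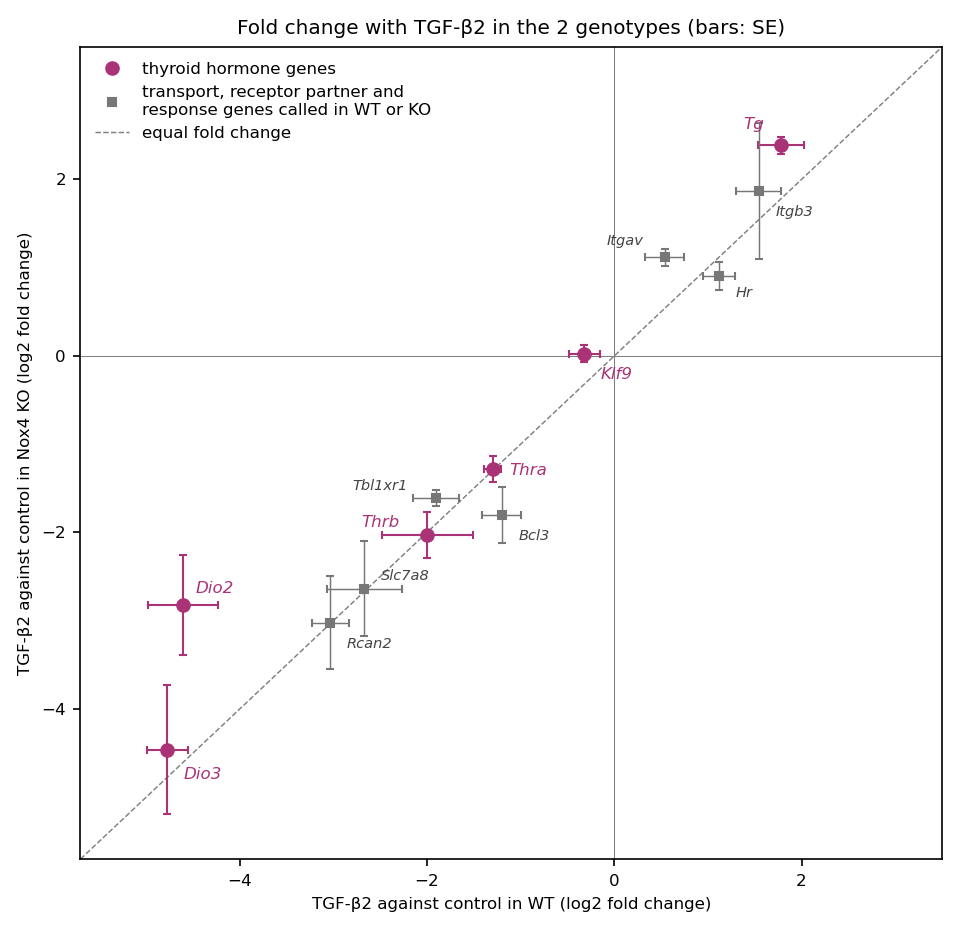
Log2 fold change with TGF-β2 in Nox4 KO against that in WT, with bars of ± SE and a dashed line of equal change. Circles are the 6 genes and squares are genes named in the text from the lists of hormone transport, receptor partners and hormone response that were called in WT or Nox4 KO. Dio2 lies farthest from the line, at -4.60 and -2.82, and the other 5 circles lie near it.

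A call required a Benjamini-Hochberg adjusted p-value under 0.05 in edgeR's quasi-likelihood test and a fold change of at least 2. Genes entered when a group mean reached 1 RPKM, which kept 4 of the 6 genes and left out Dio2 and Thrb. In WT, Tg was called higher, against 2.62% of 10743 genes, and Dio3 and Thra were called lower, against 5.09%. In Nox4 KO the same 3 genes were called in the same directions, against 2.22% higher and 4.58% lower of 10809 genes. Nothing is read from these counts, because the genes were chosen on this response. With filterByExpr or with no filter, 5 of the 6 genes were called in each genotype. With filterByExpr and 1 library left out, the WT call of Thrb was lost in 4 of 6 fits, without any 1 of the control replicates or without stimulated replicate 1 (edgeR adjusted p up to 0.0829), and the Nox4 KO call of Dio2 in 2 of 6, without stimulated replicate 1 or 2 (up to 0.0630).

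Other genes of the pathway were taken from 10 lists, written with earlier results of these data known, of which 150 genes were in the table. With TGF-β2 in WT, 4 of the 111 genes tested rose and 12 fell, beside 2.62% and 5.09% of all genes. In Nox4 KO 3 of 111 rose and 12 fell, beside 2.22% and 4.58%. As the lists were written with earlier results known, nothing is read from the number of these calls. The other nuclear receptors held 7 of these calls in WT and 4 in Nox4 KO, the remainder lay in the lists of transport, receptor partners, response genes, KLF genes and glucocorticoid response and, for Ccn4 in Nox4 KO, beside one of the 6 genes, and the lists of selenoproteins and their synthesis gave none.

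Of 12 genes of hormone transport and binding, 6 were tested. Slc7a8, which encodes the amino acid transporter LAT2, a carrier of the hormone, fell by 2.67 on the log2 scale in WT (SE 0.40, adjusted p = 0.00560) and by 2.64 in Nox4 KO (SE 0.54, adjusted p = 0.0166). Slc7a5 and Slc3a2, which together encode the related transporter LAT1, were far more abundant and did not pass the test, with log2 values of 0.23 and 0.21 in WT and 0.13 and 0.01 in Nox4 KO. Of the integrin genes whose dimer binds thyroxine at the cell surface, Itgb3 rose in WT (log2 1.54, SE 0.24, adjusted p = 0.00623) and stood at 1.87 in Nox4 KO (SE 0.77, adjusted p = 0.114). The WT call of Itgb3 was lost with all 12 libraries in 1 fit (adjusted p = 0.0761). Itgav rose in Nox4 KO (log2 1.12, SE 0.10, adjusted p = 0.00253) and stood at 0.54 in WT (SE 0.21, adjusted p = 0.110). Neither passed the test of the interaction (adjusted p = 0.939 and 0.854). The median over the tested genes of this list was 0.22 in WT and 0.07 in Nox4 KO, beside -0.0027 and -0.014 over all genes.

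The 14 tested partners of the receptors held 1 call in each genotype. Tbl1xr1, a subunit of the NCoR corepressor complex, fell by 1.91 on the log2 scale in WT (SE 0.25, adjusted p = 0.00359) and by 1.61 in Nox4 KO (SE 0.09, adjusted p = 0.00101). Hdac3, the deacetylase of that complex, stood at log2 0.08 in WT and -0.05 in Nox4 KO. The list's median was -0.30 in WT and 0.03 in Nox4 KO.

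Of 10 tested genes known to respond to thyroid hormone, Rcan2 and Bcl3 fell in both genotypes and Hr rose in WT. Rcan2, a calcineurin regulator first described as induced by the hormone in human skin fibroblasts, went from 5.40, 4.54 and 6.13 RPKM in WT control to 0.505, 0.625 and 0.780 RPKM after TGF-β2 (log2 -3.03, SE 0.19, adjusted p = 0.000423). Control and stimulated libraries were far apart in Nox4 KO too, with a log2 value of -3.02 (SE 0.53, adjusted p = 0.0110), a call that was lost without stimulated replicate 2 (adjusted p = 0.0541).

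Bcl3, a regulator of NF-κB, fell by 1.20 in WT and by 1.80 in Nox4 KO on the log2 scale (adjusted p = 0.00868 and 0.0110). Hr, the hairless corepressor, went against them, at log2 1.12 in WT (adjusted p = 0.00627) and 0.91 in Nox4 KO, under the limit there. Atp2a2, which encodes a calcium pump of the endoplasmic reticulum and was not called, stood at log2 0.19 in WT. The list's median was -0.28 in WT and -0.11 in Nox4 KO.

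None of the 19 tested selenoprotein genes other than the deiodinases, of the 9 genes of selenocysteine insertion or of the 4 tested genes of deiodinase turnover was called in either genotype by edgeR. At an unadjusted p under 0.05 there were 5, 4 and 1 genes in WT and 5, 2 and 3 in Nox4 KO. Over all genes tested the shares were 37.7% and 43.8%. The selenoprotein median was 0.0099 in WT and -0.044 in Nox4 KO. Gpx3 and Gpx1, glutathione peroxidase genes and the most abundant of that list, stood at log2 -0.04 and 0.15 in WT. Wsb1, whose product marks the Dio2 enzyme for degradation, stood at 53.2 RPKM in WT control and 49.3 RPKM after TGF-β2.

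**Figure D3:**
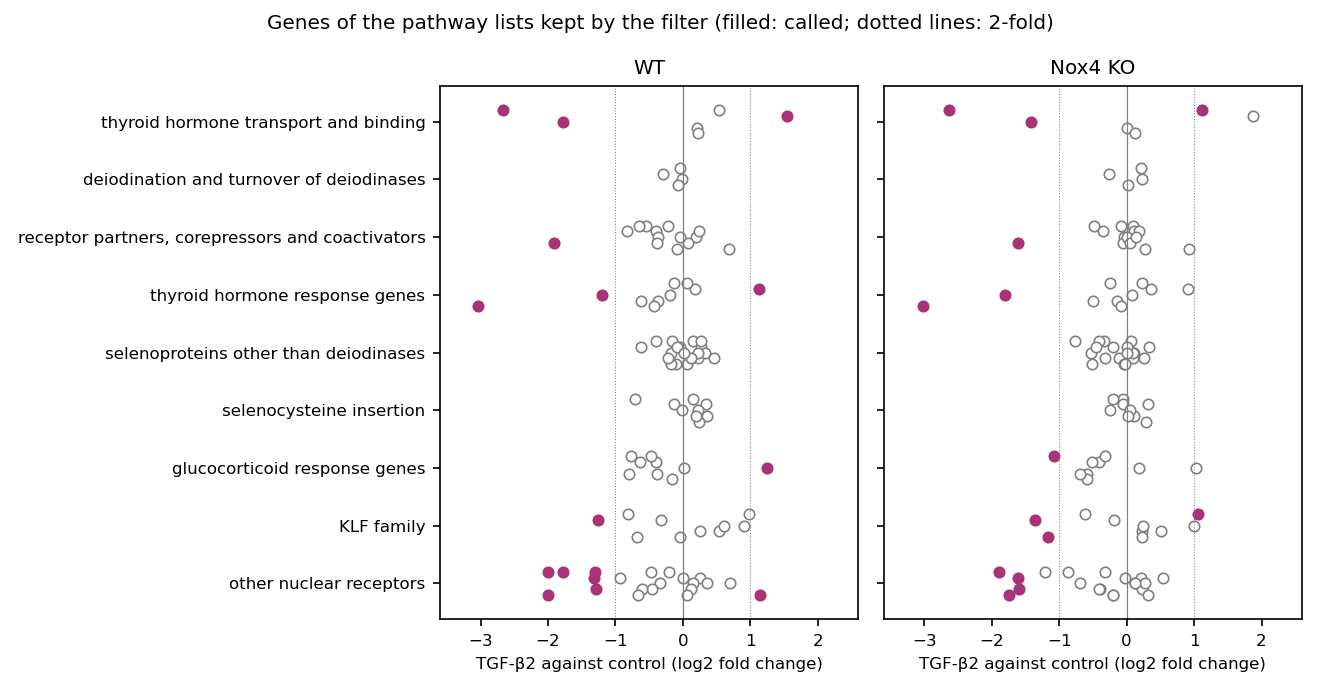
Log2 fold change with TGF-β2 in WT (left) and Nox4 KO (right) of the genes of 9 lists that passed the filter, 1 point per gene. Filled points are called and open points are not, and the dotted lines mark a 2-fold change. The lists of selenoproteins, selenocysteine insertion and deiodinase turnover hold open points only, and the points farthest to the left are Rcan2 and Slc7a8.

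Klf9 was also set beside its own family and beside genes of the glucocorticoid response, since its gene answers to that hormone as well. Of 10 tested KLF genes, Klf4 fell in WT (log2 -1.25, SE 0.19, adjusted p = 0.00569), while in Nox4 KO Klf4 and Klf2 fell and Klf10 rose (log2 -1.35, -1.16 and 1.06). In WT, Klf2 stood at -0.68 and Klf10 at 0.98, which is under the fold limit. Of 9 tested glucocorticoid response genes, Fkbp5 rose in WT (log2 1.25, adjusted p = 0.0139) and Dusp1 fell in Nox4 KO (log2 -1.08, adjusted p = 0.0135). With a library left out, Klf4 in Nox4 KO was called in 1 of 6 fits, the one without stimulated replicate 3, and Dusp1 in 3 of 6, being lost without control replicate 3 or stimulated replicate 1 or 2. The call of Klf10 was lost without control replicate 1 or stimulated replicate 2 and with upper-quartile scaling. That of Klf2 was lost without stimulated replicate 2 and with all 12 libraries in 1 fit, and that of Fkbp5 in WT without stimulated replicate 1.

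Thra and Thrb belong to the nuclear receptors. Of 21 other tested receptor genes 6 fell in WT, beside 5.09% of all genes. Only 1, Nr2f6, rose (log2 1.14, adjusted p = 0.00437), beside 2.62% of all genes. The largest falls were those of Vdr, the vitamin D receptor gene (16.5 to 4.02 RPKM, adjusted p = 0.00122), Pgr, the progesterone receptor gene (1.06 to 0.256 RPKM, adjusted p = 0.0184), and Nr1h3, the oxysterol receptor gene (2.84 to 0.802 RPKM, adjusted p = 0.00428). In Nox4 KO 4 of 20 fell, namely Nr1h3, Vdr, Nr4a1 and Nr4a3, beside 4.58% of all genes. The medians of the tested receptors were -0.46 in WT and -0.26 in Nox4 KO, beside -0.0027 and -0.014 over all genes. In Nox4 KO the call of Vdr held in 1 of 6 fits with a library left out, the one without control replicate 3, and that of Nr4a1 in 2 of 6, without control replicate 3 or stimulated replicate 3. In WT the call of Pgr held in 4 of 6 and that of Nr2f6 in 5 of 6, the latter being lost without stimulated replicate 2. Pgr lost its call without control replicate 3 and was not tested in the other fit. For 2 further receptor genes that fell in WT, the call held in 2 of 6.

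To ask whether the loss of Nox4, a gene of an NADPH oxidase that makes hydrogen peroxide, changed the 6 genes, Nox4 KO was compared with WT in each condition. This comparison and the interaction are not those on which the genes were chosen, although all values had been seen.

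None of the 6 genes was called between the genotypes in either condition. Nox4 itself was not called either, at log2 -0.99 in control (SE 0.37, edgeR adjusted p = 0.828). After TGF-β2 it stood at -1.17 (SE 0.29, edgeR adjusted p = 0.838). The paper, which also used edgeR, reported a few genes that differed in each condition. A missing call is therefore not read as a missing difference. In edgeR 0.0% of 10767 genes passed in control, with 597 at an unadjusted p under 0.05 and 6 called by DESeq2, and 0.0% of 10439 genes passed after TGF-β2, with 337 and 6. None of those DESeq2 calls was one of the 6 genes or one of the list genes, of which 111 were tested in control and 104 after TGF-β2.

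In control, Dio3 and Klf9 did not overlap between the genotypes, which is 2 of 6 genes beside 12.6% of the 14022 genes with a read in every library compared. Dio3 was lower in all 3 Nox4 KO libraries, with a log2 difference, Nox4 KO minus WT, of -0.92 (SE 0.48, edgeR adjusted p = 0.828). Without the Nox4 KO control library of 118 reads it was -0.52 (SE 0.21, adjusted p = 0.523). Klf9 had a log2 difference of -0.36 (SE 0.10) with an unadjusted p of 0.0111 and an adjusted p of 0.828. With Dio2, Tg and Thrb taken from the filterByExpr fit, the differences of Thra (-0.06, SE 0.10), Dio2 (-0.34, SE 0.24), Tg (-0.22, SE 0.22) and Thrb (-0.33, SE 0.37) had adjusted p-values of 0.858 to 0.935.

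After TGF-β2, 1 of the 6 genes, Tg, did not overlap between the genotypes, beside 9.98% of 13765 genes. Its 3 Nox4 KO libraries (2.50, 2.34 and 2.25 RPKM) lay above the 3 WT libraries (2.20, 1.58 and 1.68 RPKM), with a log2 difference of 0.39 (SE 0.16, unadjusted p = 0.0496, edgeR adjusted p = 0.838). Thra (-0.03, SE 0.15) and Klf9 (-0.0016, SE 0.17) differed by less than their errors, and Klf9 changed sign with DESeq2. With filterByExpr, Dio3 stood at -0.60 (SE 0.52) and Thrb at -0.37 (SE 0.43), with adjusted p-values of 0.863 and 0.865. Dio2 stood at 1.46 (SE 0.70, adjusted p = 0.830) in a fit with no filter, where 1 Nox4 KO library held 36 of its 55 reads.

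Exact two-sided permutation tests of log2(CPM + 0.5) covered the 6 genes in both conditions, where CPM is the count scaled to library size. The smallest p that 3 libraries against 3 can give is 0.1, and it was reached by Dio3 and Klf9 in control and by Tg after TGF-β2. Adjusted over the 12 comparisons it was 0.4.

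The response itself was compared between the genotypes by the interaction over all 12 libraries, in which 0.0% of 10890 genes passed, with 292 at an unadjusted p under 0.05 and 6 called by DESeq2, none of them among the 6 genes. The difference of the log2 responses, Nox4 KO minus WT, was 0.61 (SE 0.27) for Tg, with an unadjusted p of 0.0469 and an adjusted p of 0.854. For Dio2 it was 1.80 (SE 0.72, unadjusted p = 0.0296, adjusted p = 0.914 with filterByExpr), and without the Nox4 KO library of 36 reads it was 0.86 (SE 0.52, adjusted p = 0.823). The values of Dio3 (0.33, SE 0.77), Thra (0.03, SE 0.18), Thrb (-0.03, SE 0.57) and Klf9 (0.36, SE 0.21) were smaller, and those of Dio3, Thra and Thrb changed sign when single libraries were left out. These fits did not pair replicates by number. Their errors of Dio2, Dio3 and Thrb are wide enough that a difference of 1 log2 unit could go undetected.

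**Figure D4:**
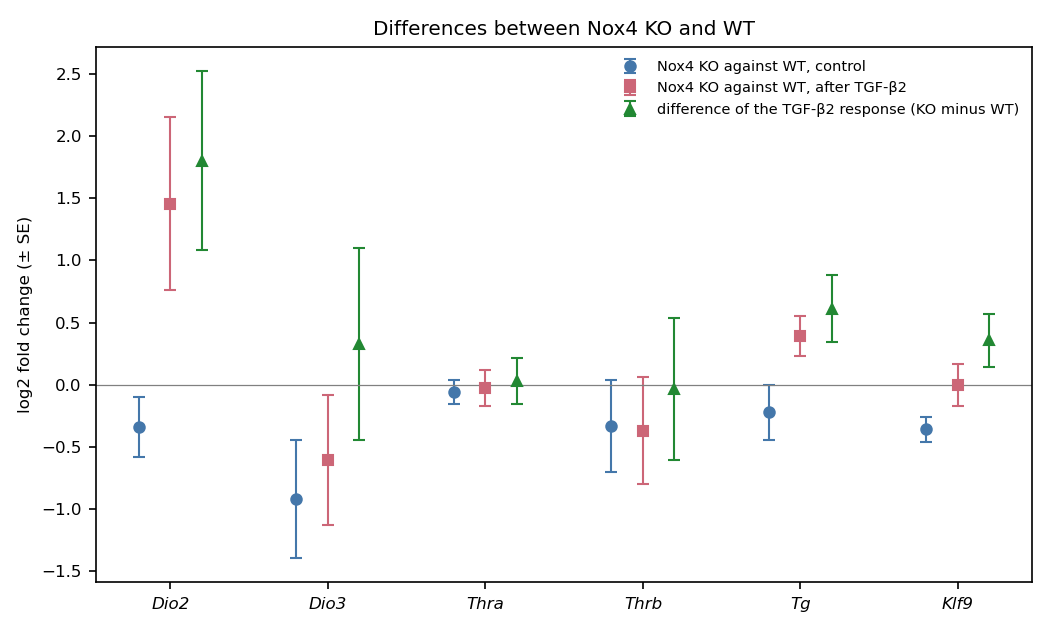
Log2 difference between Nox4 KO and WT in control (circles) and after TGF-β2 (squares), and the difference of their TGF-β2 responses (triangles), for the 6 genes with bars of ± SE. Dio2, Dio3 and Thrb have the widest bars, the points of Thra lie within 0.1 of 0, and none of the points passed the test.

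For each gene kept over all 12 libraries, the genes with the most similar pattern were found by the root-mean-square difference of their mean-centred log2(CPM + 0.5) values among 10889 others. For Dio3 they were Plxnc1, a semaphorin receptor gene (0.463), Pdgfra, the gene of a receptor of platelet-derived growth factor (0.499), and Rerg, which encodes a small GTPase (0.513). Their means were also lower after TGF-β2, in WT from 39.9 to 3.79 RPKM for Pdgfra and from 10.3 to 0.793 RPKM for Rerg. For Thra they were Dpy19l3 (0.134), Rnase10 (0.143) and Pkdcc (0.147), for Tg they were Tmcc3 (0.223), Slc7a7 (0.254) and Nrp2 (0.256), and for Klf9 Mef2a (0.0750), Slc23a2 (0.0784) and Stard13 (0.0890). The distances are smallest for Klf9, whose own values span little. All 12 points share the same libraries, and no test was made.

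Markers of other cells were low except for 2 lists. The 7 markers of myeloid and other immune cells summed to 11.6 to 106 RPKM and varied as much within groups as between them, at 22.6 to 106 RPKM in WT control and 18.2 to 72.0 after TGF-β2. The 5 skeletal muscle markers summed to 42.0 to 98.3 RPKM in WT control and 275 to 615 RPKM after TGF-β2, while 3 of the 5 stayed under 1 RPKM in every library, and Acta1, an actin gene, made up most of the sum (65.1 and 418 RPKM). The lists of keratinocytes, endothelial cells, adipocytes, and melanocytes and Schwann cells summed to at most 5.38 RPKM. The part of these cells in the levels of the 6 genes was not tested.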

How the data were processed

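RNA of 12 libraries was sequenced as single-end reads after TruSeq library preparation. The authors mapped them to GRCm38 with STAR, dropped reads with several locations and ran featureCounts on the merged exons of each gene's protein-coding isoforms. The deposited values are these raw counts per gene, not normalized, for 21556 genes. CASAVA 1.8.2, STAR 2.4 and featureCounts 1.4.6 are named in the submitters' processing notes. Strand use is not stated.

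RPKM values were derived with library totals (35118344 to 43796260) and the merged exon length in GENCODE M21, using protein-coding transcripts for 21099 genes and, for the other 457, all transcripts. A count of 0 allows 3 counts, and 3 counts of Dio2 were worth 0.0118 to 0.0147 RPKM. Such limits cover counting error only. Groups and replicate numbers came from the labels. No 2 replicates agreed within sampling noise (chi-square of 15.1 to 154 per gene over 12 pairs). The p-values measure the spread between these cultures.

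Each comparison was fitted on its own 6 libraries with edgeR 4.0.16 (R 4.3.3; TMM, quasi-likelihood test, Benjamini-Hochberg adjustment over all genes tested), for genes with a mean of at least 1 RPKM in at least 1 group. The interaction used all 12 libraries and no fold limit. The SE of a log2 difference was derived from the F statistic. The procedure was tested on simulated data. The members and lists were chosen with earlier results of these data known. Besides the members, the text names called genes of the lists (at most 4 per list and comparison, by size), at most 2 abundant members not called, genes beside a member, Nox4, and the 3 genes of most similar pattern. Of the lists, Cebpd, Dio3os and Meg3 were not analysed here, and some genes are counted in their list but not reported here by name.

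In Nox4 KO, deviations from the group means correlated between control and stimulated libraries of the same number (0.763, 0.688 and 0.741), which by the limit of 0.1 in every pair makes the numbers a pairing. It comes from this check, no source states it, and the main fits did not use it. Those of WT (0.0619, 0.415 and 0.525) did not all pass 0.1.

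The alternatives were DESeq2 1.42.0, upper-quartile scaling, no filter, filterByExpr, all 12 libraries in 1 fit, a replicate block, no fold limit, other pseudocounts, lengths and library sizes, and leaving out each library. Leaving out libraries under filterByExpr was added after the data were seen.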

Additional observations from a re-analysis of the deposited data

How the results depend on the processing

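Counted once per value and alternative, 27 log2 differences changed sign, all of them small ones that passed no test. Another 6 lost their call, and 292 kept direction and call. Of the counts, levels and permutation differences, counted likewise, 330 stayed and 21 moved. The TGF-β2 differences of Dio3, Thra and Tg kept direction and call in every alternative. Nothing is read from this, because the genes were chosen on this response. With 1 library left out these differences lay between -4.87 and -4.64, -1.34 and -1.24, and 1.59 and 1.96 in WT. In Nox4 KO they lay between -4.85 and -3.98, -1.44 and -1.18, and 2.34 and 2.45. Thrb in WT and Dio2 in Nox4 KO, measured by few reads, were called in 2 and 4 of 6 such fits.

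Without the filter 1259 genes were called in WT, and with no fold limit 2425 in WT and 3243 in Nox4 KO, with 32 and 38 genes of the lists. No filter and filterByExpr each called 5 of the 6 genes in both genotypes, because Dio2 and Thrb were then tested. In Nox4 KO the count lay between 442 (without stimulated replicate 2) and 892, and that of list genes between 8 and 17, with a library left out. The genotype comparisons and the interaction gave 6 calls each with DESeq2, and 1 in control with all 12 libraries in 1 fit. With 1 library left out, they gave 0 to 1 in control and 0 to 1 after TGF-β2. Thra with lengths of all transcripts stood at 13.8 and 5.47 RPKM in WT and 13.7 and 5.30 RPKM in Nox4 KO.

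The log2 value of Klf9 with TGF-β2 in Nox4 KO became -0.037 with upper-quartile scaling and -0.044 to 0.091 with a library left out. After TGF-β2 the genotype difference of Klf9 was 0.0019 with DESeq2 and -0.17 to 0.10 with a library left out, and that of Thra -0.18 to 0.064. In the interaction, Dio3 ranged from -0.088 to 0.80, Thra from -0.13 to 0.13 (-0.021 with upper-quartile scaling) and Thrb from -0.54 to 0.31, with positive values of 0.16, 0.15, 0.048, 0.31, 0.18, 0.021 and 0.048. Thrb in control turned to 0.16 without WT control replicate 3.

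With the replicate number as a block, Klf9 after TGF-β2 turned to 0.016 between the genotypes. The block was run under the 1 RPKM filter, which left out Dio2 and Thrb. It changed no call of the other members tested, and moved the calls from 829 to 925 in WT and from 735 to 904 in Nox4 KO. Depth limits Dio2, Dio3 and Thrb most, with 3 to 53 reads in every stimulated library.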
